A study of Mus musculus with 11 samples.

Results

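The 9 genes described here encode the CD3 signalling chains that carry the T cell receptor (Cd3d, Cd3e, Cd3g and Cd247), the coreceptor CD4 and the costimulatory receptor CD28 (Cd4, Cd28), the kinases LCK and ZAP70 (Lck, Zap70) and the adaptor LAT (Lat). They were chosen by name as the core of T cell receptor signalling, with earlier results of these data known. Their Ensembl identifiers were found through GENCODE M21 (GRCm38). All 9 were among the 56748 gene identifiers of the count table and all 9 passed the filter on low counts, which left 17987 tested genes. RNA-seq was performed on liver CD4 T cells of mice given carbon tetrachloride (CCl4), a hepatotoxin that causes fibrosis, for 5 weeks. Of 11 libraries, 6 carried the genotype ATG5TLymph-/- (Atg5-deficient), in which T lymphocytes lack a protein needed to form autophagosomes, and 5 were labelled wildtype, which the series gives as ATG5fl/fl (wild-type). All mice of both groups received CCl4, and livers without injury were not analysed here. No source used here gives the driver of the deletion, the strain, the sex or the age. The series describes sorted CD4 T cells, whereas the protocol in the labels describes RNA from sections of fixed, paraffin-embedded blocks.

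The T cell receptor has no signalling tail of its own and depends on the CD3 chains, whose cytoplasmic parts hold the tyrosines that are phosphorylated when antigen is bound. LCK, which is held at the membrane with CD4, phosphorylates these tyrosines, ZAP70 docks on them and phosphorylates LAT, and LAT then gathers the enzymes that start the calcium, Ras and protein kinase C branches. CD28 supplies the second signal that a T cell needs for full activation. In the liver, CD4 T cells respond to antigens from food and microbes that arrive by the portal vein, and in fibrosis they influence the scar-forming cells.

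Libraries held 30699408 to 47564440 counted reads. Whether each library is from another mouse is not stated, and the p-values thus reflect only the spread among these samples, which may be technical. Chi-square per degree of freedom between libraries of 1 group was 12.9 to 165, so none of the 25 pairs of libraries within a group were copies. Wild-type replicates 2 and 3 stood apart, at 95.7 to 165 from replicates 1, 4 and 5, which were 12.9 to 19.0 from each other. CPM are counts scaled to a common library total. Values of single genes also use TMM factors, and sums of cell markers do not. Summed CD4 T cell markers, 6 genes of which 5 are among the 9 described here, stood at 1970 to 2953 CPM (median 2526) in Atg5-deficient libraries. Wild-type libraries had 1954 to 2167 CPM (median 2141), and 5 of 6 Atg5-deficient libraries exceeded every wild-type value. Since this sum consists largely of the genes described here, it restates their values and gives no separate measure of T cell content. The part of T cell content in the results below was not tested. In the same libraries Cd8a, a defining gene of CD8 T cells, had 0 to 6 counts per library and Cd8b1 at most 6.39 CPM. Summed hepatocyte markers ran from 45.4 to 835 CPM in Atg5-deficient and from 33.2 to 478 CPM in wild-type libraries, and NK cell markers from 8.19 to 85.8 and from 12.1 to 16.7 CPM. The NK cell markers differed in direction. Log2 fold changes (Atg5-deficient over wild-type) were 1.57 for Eomes, -1.49 for Klrb1c and -1.74 for Klre1. None of these passed the test between genotypes, and Ncr1, with at most 11 counts, was not tested. The neutrophil gene Retnlg was at 0 in every library. Other neutrophil genes were near 0, with at most 22 counts for S100a8, 4 for S100a9 and 2 for Ly6g. None of these neutrophil genes was tested between genotypes. Their sum peaked at 0.0551 CPM among wild-type libraries, and 3 Atg5-deficient ones lay above that, up to 0.603 CPM. No difference between genotypes passed for total counts, detected genes, the mitochondrial share or the summed hepatocyte markers (adjusted p = 0.797 for each of these 4 comparisons, exact permutation tests over all 462 splits, two-sided). Other marker sums were not compared in this way. Of 4 gamma-delta T cell genes 1 was called, Tcrg-C4 (log2 fold change -1.51, edgeR adjusted p = 0.0297), where 6.84% of all tested genes were. It had 0.367 to 1.38 CPM in Atg5-deficient and 1.70 to 2.72 CPM in wild-type libraries. Trdc had 0.45, Tcrg-C1 -1.31 and Tcrg-C2 -0.81 on the log2 scale without passing. The targeted gene, Atg5, had 15.2 to 22.5 CPM in the 6 Atg5-deficient and 13.4 to 21.04 CPM in the 5 wild-type libraries. Which exons were deleted is not stated, and a count over the whole gene therefore does not check the genotype labels.

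Promoter windows from RefSeq (GRCm38.p6, 250 bases before to 50 after a start site) were found for 7 of the 9 genes, with 10 windows in all. The 3 shown are those of Zap70, the gene that passed the test, and of Cd3d and Cd3g, neighbours that are transcribed away from each other and whose estimated changes differed in sign. Capitals mark the ETS core GGAAG or its reverse complement CTTCC, the motif of a family of factors with members active in lymphocytes.
Zap70, chr1:36761548-36761847, plus strand: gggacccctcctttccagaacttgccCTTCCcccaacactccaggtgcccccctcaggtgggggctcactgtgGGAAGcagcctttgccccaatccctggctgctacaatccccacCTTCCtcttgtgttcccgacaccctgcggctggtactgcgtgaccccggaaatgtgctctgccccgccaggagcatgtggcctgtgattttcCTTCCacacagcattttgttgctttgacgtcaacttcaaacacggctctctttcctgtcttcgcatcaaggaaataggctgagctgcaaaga
Cd3d, chr9:44981536-44981835, plus strand: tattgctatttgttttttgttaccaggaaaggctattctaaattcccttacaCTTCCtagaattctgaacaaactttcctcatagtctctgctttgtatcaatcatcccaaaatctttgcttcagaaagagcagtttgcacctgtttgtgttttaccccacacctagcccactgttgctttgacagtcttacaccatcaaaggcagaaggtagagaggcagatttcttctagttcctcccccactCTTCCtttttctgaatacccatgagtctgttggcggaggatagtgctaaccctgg
Cd3g, chr9:44980382-44980681, minus strand: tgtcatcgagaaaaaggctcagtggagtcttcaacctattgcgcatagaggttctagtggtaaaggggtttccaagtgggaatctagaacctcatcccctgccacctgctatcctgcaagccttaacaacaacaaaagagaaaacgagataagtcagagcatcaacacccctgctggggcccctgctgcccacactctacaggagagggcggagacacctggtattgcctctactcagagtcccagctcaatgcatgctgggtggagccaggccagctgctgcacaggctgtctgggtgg
Zap70 has 3 windows, of which the first is shown. The second held 4 ETS matches and 1 RUNX match, and the third 0 of either. The Zap70 window shown held 4 matches, the Cd3d window 2 and the Cd3g window 0. Of the 10 windows of these genes, 8 held at least 1 match, and 71.4% of all 32851 mouse promoter windows did. Further motifs were searched on both strands. The E-box CANNTG occurred 3 times in the Zap70, 1 time in the Cd3d and 4 times in the Cd3g window shown (72.3% of all windows hold 1 or more). The RUNX motif TGTGGT (16.8% of all windows) and TATAAA (13.6%) were in 0 of these 3 windows. No match of one motif overlapped a match of another in them. A match is a description of letters and does not show that a factor binds there.

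Of the 9 genes only Zap70 passed the test between genotypes (edgeR quasi-likelihood test, Benjamini-Hochberg adjusted over all tested genes), and it was higher in Atg5-deficient libraries. Among all tested genes, a background not matched for expression level, 6.84% were called, 4.43% higher and 2.41% lower. DESeq2 also called Zap70 alone, with 12.8% of all its tested genes called (7.51% higher, 5.26% lower), and limma-voom called Zap70 and Cd4, with 18.8% called (10.8% higher, 8.01% lower). Estimated log2 fold changes (Atg5-deficient over wild-type) of the other 8 genes lay between -0.04 for Cd3d and 0.31 for Cd4. The median over the 9 was 0.13, against -0.0027 for all tested genes. At an unadjusted p under 0.05, Zap70 and Cd4 passed, and 23.4% of all tested genes did. Positive estimates were found for 8 of the 9 genes and for 49.7% of all tested genes. The 9 genes did not vary independently of the library, so their signs are not separate observations. Positive estimates numbered 9 in limma-voom and 7 with upper-quartile in place of TMM factors. They numbered 3 with libraries scaled to the summed counts of Cd3d, Cd3e and Cd3g, which leaves these genes out. In bulk RNA, a change in the number of T cells and a change in RNA per T cell cannot be told apart.

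**Figure D1:**
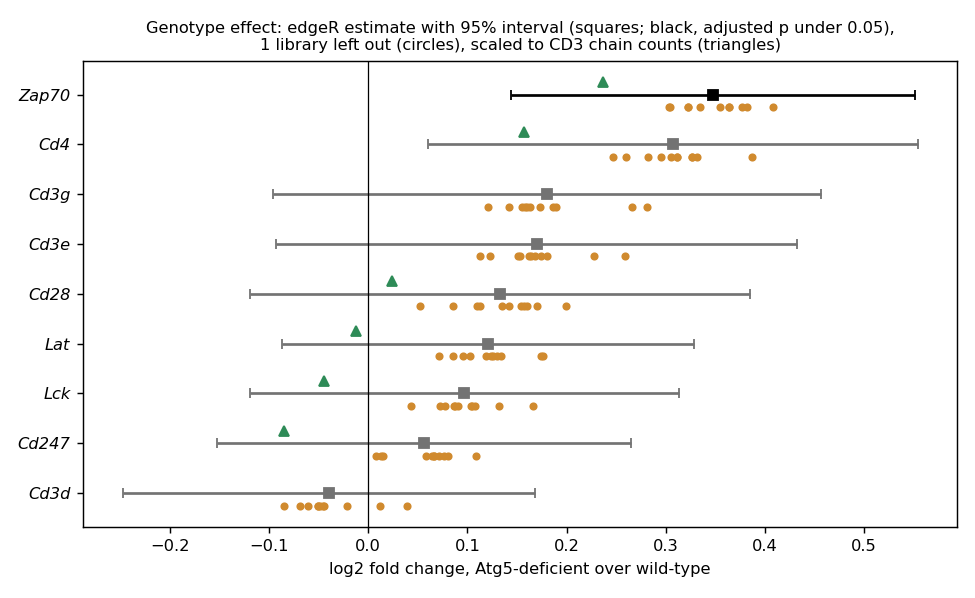
Log2 fold change of each gene, Atg5-deficient over wild-type (horizontal axis), from edgeR with its 95% interval (squares, black where adjusted p is under 0.05), from the 11 fits that left out 1 library (circles), and with libraries scaled to the summed counts of Cd3d, Cd3e and Cd3g (triangles, not defined for these 3 genes). The interval of Zap70 runs from 0.14 to 0.55 and that of Cd3d from -0.25 to 0.17, and all triangles lie to the left of their squares.

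The CD3 delta, epsilon and gamma chains are encoded in 1 cluster on chromosome 9 that spans 40056 bases. Cd3g (ENSMUSG00000002033, 44969572 to 44980431, minus strand) and Cd3d (ENSMUSG00000032094, 44981786 to 44987339, plus strand) start 1354 bases apart, and Cd3e (ENSMUSG00000032093, 44998740 to 45009627, minus strand) lies beyond Cd3d. Counts of these genes were high, with 4103 reads for Cd3d in the lowest library, so the spread between libraries exceeds counting error by far.

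Cd3e, which pairs with either of the other chains, had 284 CPM in the lowest, a median of 421 and 502 CPM in the highest Atg5-deficient library. The wild-type libraries 1 to 5 had 354, 425, 353, 371 and 363 CPM. Both the highest and the lowest of the 11 libraries were Atg5-deficient, and the groups overlapped. The means were 419.7 ± 77.5 CPM (SD, n = 6) and 373 ± 29.8 CPM (SD, n = 5), with a log2 fold change of 0.17 (SE 0.12, 95% interval -0.09 to 0.43, adjusted p = 0.442).

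Cd3g, the gamma chain that joins CD3 epsilon in the receptor, ranged from 310.3 through a median of 451 to 540.5 CPM in Atg5-deficient libraries. Wild-type values were 366, 496, 377, 371 and 372 CPM, so that wild-type replicate 2 stood above its group and 2 of 6 Atg5-deficient libraries above it. Cd3g had a log2 fold change of 0.18 (SE 0.13, 95% interval -0.10 to 0.46, adjusted p = 0.437).

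Cd3d, the delta chain, was the only one of the 9 genes with a negative estimate. It stood at 129, a median of 163 and 183 CPM in Atg5-deficient and at 149, 195, 160, 153 and 158 CPM in wild-type libraries. None of the Atg5-deficient libraries lay above the highest wild-type library, and 2 lay below the lowest. The log2 fold change was -0.04 (SE 0.10, 95% interval -0.25 to 0.17, adjusted p = 0.848), and it was positive in limma-voom (0.05) and without Atg5-deficient replicate 3 (0.01) or wild-type replicate 2 (0.04).

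Cd247, the zeta chain, which carries more of the phosphorylated motifs than any other chain, lies on chromosome 1 (ENSMUSG00000005763, 165788681 to 165877277, plus strand). Its values were 298.5, a median of 361 and 428 CPM in Atg5-deficient and 367, 357, 309, 373 and 362 CPM in wild-type libraries. The log2 fold change was 0.06 (SE 0.10, 95% interval -0.15 to 0.26, adjusted p = 0.776), and the estimate was negative with upper-quartile factors (-0.02) and when scaled to the other CD3 chains (-0.08). Exons of Cd247 share 3007 of their 5329 bases with Pou2f1 on the other strand, which had 18.9% of its count, and 206 bases with Gm16565 on the same strand (15.5%). No source used here gives the strand setting of the counting, and reads of these overlapping genes cannot be told apart.

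**Figure D2:**
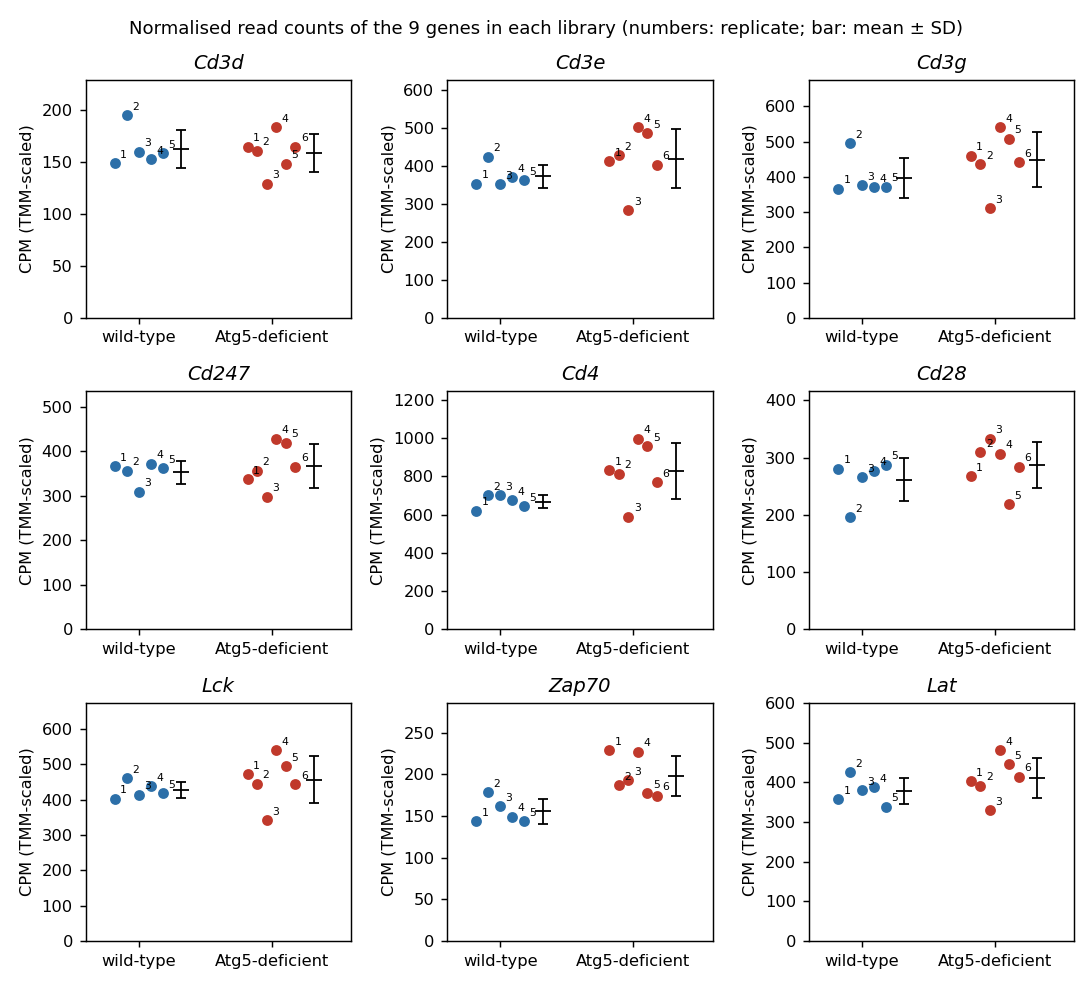
TMM-scaled CPM (vertical axes, from 0) of the 9 genes in 5 wild-type (blue) and 6 Atg5-deficient (red) libraries, numbered by replicate, with the mean and SD beside each group. Atg5-deficient replicate 3 is the lowest library for 7 of the 9 genes and the highest for Cd28, and no gene separates the groups fully.

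Cd4, the coreceptor that binds MHC class II and brings LCK to the receptor, lies on chromosome 6 (ENSMUSG00000023274, 124864692 to 124888221, minus strand). Atg5-deficient libraries 1 to 6 had 831, 813.5, 589, 995, 957 and 770.2 CPM, and wild-type libraries 619, 699.7, 701, 674 and 644 CPM. Apart from replicate 3, each Atg5-deficient value exceeded the highest wild-type value, and replicate 3 was the lowest of the 11. The log2 fold change was 0.31 (SE 0.12, 95% interval 0.06 to 0.55, adjusted p = 0.122), a fold of 1.24 with an interval of 1.04 to 1.47. Without Atg5-deficient replicate 3 it was 0.39 and passed (adjusted p = 0.0113), as it did in limma-voom with quality weights (0.35, adjusted p = 0.0112). In the other 10 fits that left out 1 library Cd4 did not pass, and the range over all 11 was 0.25 to 0.39 (adjusted p up to 0.24).

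Cd28, the costimulatory receptor (chromosome 1, ENSMUSG00000026012, 60716800 to 60773359, plus strand), had 268, 309.6, 333, 307, 219 and 284.5 CPM in Atg5-deficient libraries 1 to 6. Wild-type libraries had 280.4, 196, 266, 277 and 288 CPM. Its highest library was Atg5-deficient replicate 3, where most of the other genes were lowest, and its lowest was wild-type replicate 2, where Cd3d was highest. Cd28 had a log2 fold change of 0.13 (SE 0.12, 95% interval -0.12 to 0.39, adjusted p = 0.542).

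Lck, the Src family kinase that begins the cascade (chromosome 4, ENSMUSG00000000409, 129548344 to 129573641, minus strand), stood at 342, a median of 459 and 539.5 CPM in Atg5-deficient libraries. The wild-type values of 403, 461, 414, 439 and 418 CPM lay inside that range. Means were 457 ± 66.3 CPM (SD, n = 6) and 427 ± 23.0 CPM (SD, n = 5), and the log2 fold change was 0.10 (SE 0.10, 95% interval -0.12 to 0.31, adjusted p = 0.613).

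Zap70, the kinase that docks on phosphorylated CD3 chains (chromosome 1, ENSMUSG00000026117, 36761798 to 36782818, plus strand), had 229, 187, 193, 227, 178 and 174 CPM in Atg5-deficient libraries 1 to 6. Wild-type libraries 1 to 5 had 144, 178, 162, 149 and 144 CPM. In 4 of the 6 Atg5-deficient libraries Zap70 exceeded the highest wild-type value, and 4 of 5 wild-type values were under the lowest Atg5-deficient one, wild-type replicate 2 being the exception. Zap70 was higher in Atg5-deficient (198 ± 24.2 CPM, SD, n = 6) than in wild-type libraries (156 ± 14.7 CPM, SD, n = 5), with a log2 fold change of 0.35 (SE 0.10, 95% interval 0.14 to 0.55, adjusted p = 0.0428), or 1.27-fold with an interval of 1.11 to 1.47. Unlike Cd4, Zap70 was above its wild-type mean in Atg5-deficient replicate 3 (by 0.31 on the log2 scale).

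The call of Zap70 stood close to the threshold. With 1 library left out at a time it passed in 4 of 11 fits, those without Atg5-deficient replicate 3, 5 or 6 or wild-type replicate 2, and the adjusted p ranged from 0.0274 to 0.101 with log2 fold changes of 0.30 to 0.41. With summed hepatocyte markers as a covariate the log2 fold change was 0.33 (adjusted p = 0.0531), with upper-quartile factors 0.28 (adjusted p = 0.0866), and with the 8 consecutively titled libraries alone 0.32 (adjusted p = 0.195).

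Lat, the membrane adaptor that ZAP70 phosphorylates (chromosome 7, ENSMUSG00000030742, 126363824 to 126369570, minus strand), ranged from 329 through a median of 408 to 480.5 CPM in Atg5-deficient libraries. Wild-type values were 357, 426, 379.7, 387 and 339 CPM, within that range. Lat had a log2 fold change of 0.12 (SE 0.10, 95% interval -0.09 to 0.33, adjusted p = 0.495).

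The genes did not vary independently of the library. Atg5-deficient replicate 4 was the highest library for Cd4, Cd3e, Cd3g, Cd247, Lck and Lat, and replicate 3 the lowest for these 6 and for Cd3d. The median of the 9 genes stood 0.35 above the wild-type mean on the log2 scale in replicate 4 and 0.24 below it in replicate 3 (log2 difference -0.24). Summed hepatocyte markers were 605.5 CPM in replicate 3 and 45.4 CPM in replicate 4, B cell markers 24.9 and 12.1 CPM, and NK cell markers 30.8 and 85.8 CPM, most of them from Eomes in replicate 4. Replicates 1 and 2 had 772 and 835 CPM of hepatocyte markers, and replicates 5 and 6 had B cell sums of 20.99 and 22.67 CPM. The median of the 9 genes stood 0.14 to 0.24 above the wild-type mean in these 4 libraries. The part of other cells in the levels of the 9 genes was not tested. Among wild-type libraries, replicate 2 had the highest Cd3d, Cd3e, Cd3g, Lck, Lat and Zap70 of its group, and its 20 most counted genes took 33.1% of the reads, the largest share of the 11 libraries, whose part was not tested.

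**Figure D3:**
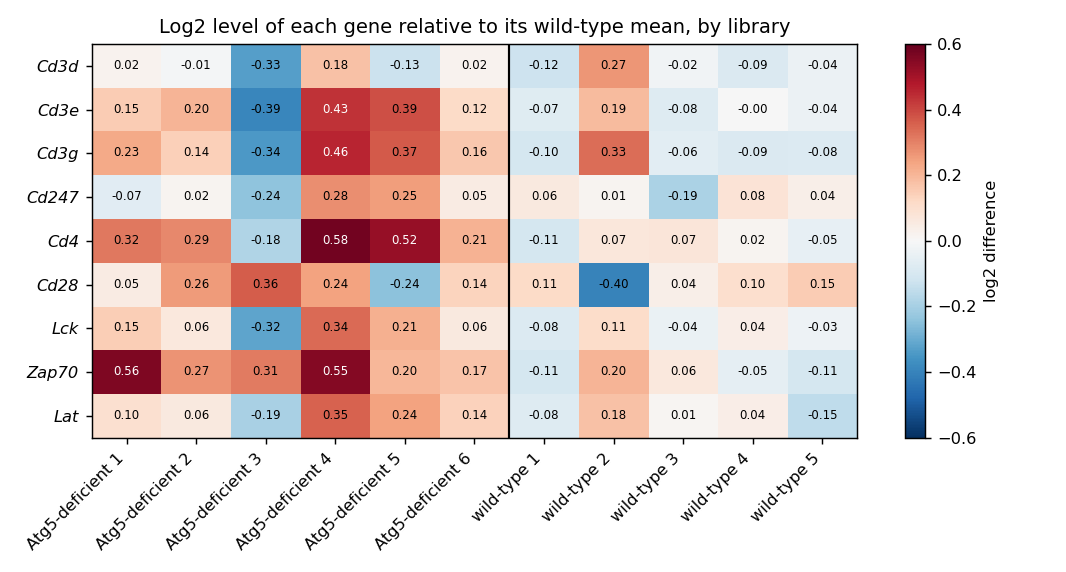
Log2 level of each gene (rows) in each library (columns) minus its mean over the 5 wild-type libraries, with a line between the genotypes. In Atg5-deficient replicate 3, Cd28 (0.36) and Zap70 (0.31) are above and the other 7 genes below the wild-type mean, and in replicate 4 all 9 are above it.

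The coefficient of variation was larger among Atg5-deficient than among wild-type libraries for Cd4 (17.6% against 5.36%), Lck (14.5% against 5.38%) and Cd3e (18.5% against 7.99%). For each of these genes the highest library was Atg5-deficient replicate 4 and the lowest replicate 3, so these spreads are not separate observations. The coefficient was close between groups for Cd28 (14.0% and 14.2%) and Cd3d (11.6% and 11.3%). Over the 1877 tested genes with a mean of at least 100 CPM, the median coefficient was 11.8% in Atg5-deficient and 8.845% in wild-type libraries, and the difference in spread was not tested.

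Ratios of levels per kilobase within a library do not depend on how libraries are scaled. Over the 36 pairs of the 9 genes, which share genes and are not independent, the coefficient of variation across libraries ran from 4.58% for Lat over Lck to 29.3% for Cd3g over Cd28. Cd3g over Cd3e was nearly as steady (4.63%), with 1.34 ± 0.0449 in Atg5-deficient (SD, n = 6) and 1.32 ± 0.0824 in wild-type libraries (SD, n = 5), both per length. In 3 of 36 pairs the groups did not overlap. Zap70 over Cd3d was 0.642 to 0.906 in Atg5-deficient and 0.552 to 0.615 in wild-type libraries (0.6145 at most). Cd4 over Cd3d was 2.06 to 2.90 against 1.62 to 1.99, and Cd4 over Lck 1.249 to 1.404 against 1.103 to 1.23. Of the ratios of every tested gene to Cd3d, 4.94% did not overlap between groups (4.15% higher in Atg5-deficient libraries), and of the ratios to Lck 3.96% (2.19% higher). No test was made of these ratios. Zap70 over Cd3e overlapped between the groups, at 0.663 ± 0.153 and 0.569 ± 0.0340.

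With libraries scaled to the summed counts of Cd3d, Cd3e and Cd3g, 0 of the other 6 genes passed (edgeR; 0 at an unadjusted p under 0.05), and 1.61% of all tested genes did, so that a count of 0 among 6 is close to the background. The median log2 fold change of all genes was then -0.12, against -0.0027 with TMM factors. On that scale the log2 fold changes were 0.24 for Zap70 (adjusted p = 0.391), 0.16 for Cd4, 0.02 for Cd28, -0.01 for Lat, -0.04 for Lck and -0.08 for Cd247, so that Lat, Lck and Cd247 changed sign.

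Levels of different genes were compared per kilobase of merged exons. In CPM per kilobase, the medians over the 11 libraries were 174 for Cd4, 152 for Lck, 142 for Lat, 133 for Cd3g, 98.95 for Cd3e, 88.0 for Cd3d, 67.9 for Cd247, 59.4 for Zap70 and 45.8 for Cd28. Ranges over libraries overlapped between each gene and the next in this order. Within libraries, Cd4 was above Lck, Lat above Cd3g, Cd3g above Cd3e, Cd3d above Cd247 and Zap70 above Cd28 in 11 of 11. Lck was above Lat in 10 and Cd247 above Zap70 in 9 libraries, and Cd3e was above Cd3d in 8, the fewest of these pairs. The highest gene stood 2.69 to 6.64 times above the lowest within a library. With the longest transcript as the length, Cd247 (122 CPM per kilobase) came before Cd3d (98.8), so the order of these genes depends on the length used.

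**Figure D4:**
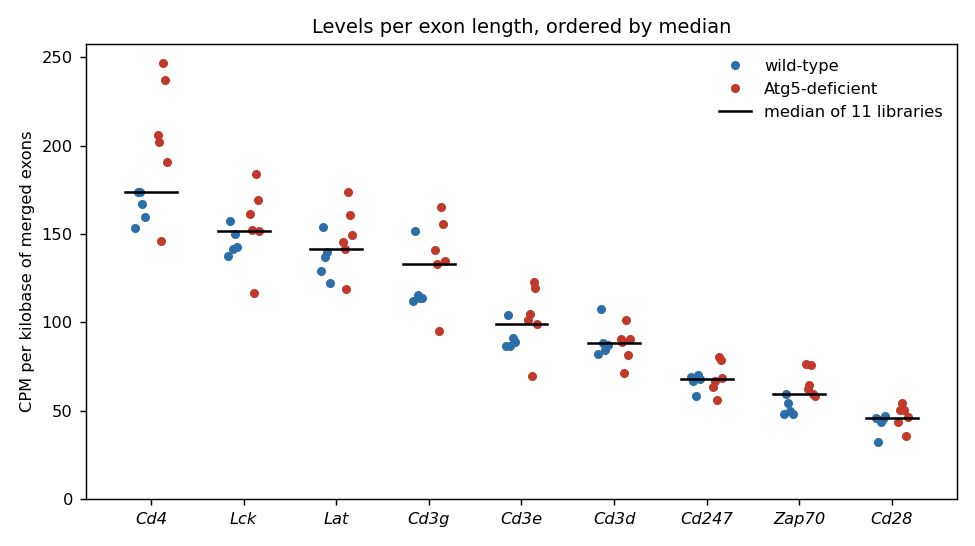
CPM per kilobase of merged exons (vertical axis, from 0) for the 9 genes in order of their median over 11 libraries (black lines), with wild-type libraries in blue and Atg5-deficient libraries in red. Cd4 has the highest median (174) and Cd28 the lowest (45.8), and neighbouring genes overlap.

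The genes whose pattern over the 11 libraries was most like these were sought among 7603 protein-coding genes with a mean of at least 10 CPM, by the root mean square difference of profiles centred and scaled to an SD of 1. Nearest to the mean profile of Cd3d, Cd3e and Cd3g were Arrb2 (0.192 SD), Mlx (0.253), Atp5h (0.283) and Ndufa3 (0.322). The nearest gene was Dpysl2 for Cd4 (0.198), Atf2 for Cd247 (0.361), Ehd3 for Lck (0.261), Tpst2 for Zap70 (0.265), Scamp3 for Lat (0.314) and Cenpa for Cd28 (0.265). Among the 9 genes themselves Cd3e and Lck were the closest (0.233), then Cd3e and Cd3g (0.257), and Cd3g and Cd28 were farthest apart (1.66). Profiles share their libraries and scaling, and these distances are a description.

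Other genes of T cell receptor signalling were followed in 6 lists of 84 genes, of which 82 were tested (Cd8a and Ptcra were not). Of these, 12 were higher and 1 lower in Atg5-deficient libraries, and 69 did not pass, where 4.43% of all tested genes were higher and 2.41% lower. Positive estimates were found for 56 of 82 genes, and for 49.7% of all tested genes. These shares over all tested genes are the background for each list below, and they are not matched for expression level. The median coefficient of variation over all tested genes was 23.9% in Atg5-deficient and 19.0% in wild-type libraries. Over genes with a mean of at least 100 CPM it was 11.8% and 8.845%. The share called among genes of like level was not computed. The lists were chosen with earlier results of these data known, so the counts describe the lists and do not test the pathway. The median log2 fold change was 0.10, against -0.0027 over all tested genes. With scaling to the CD3 chains 1 of the lists' genes passed, the myristoyl-binding chaperone gene Unc119, while 1.61% of all genes were called. Log2 fold changes of genes that no longer passed were 0.78 for Ptprj, 0.64 for Slamf1, 0.52 for Icos and 0.34 for Cd6 on that scale. With the 8 consecutively titled libraries alone 1 passed, the adaptor gene Sla, while 0.935% of all genes were called. There Ptprj had 0.95, Slamf1 0.81, Cish 0.62 and Icos 0.60 on the log2 scale without passing.

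The receptor's constant regions and assembly had 0 of 4 tested genes called (edgeR; 2 at an unadjusted p under 0.05, Trat1 and Trac). Trac, the constant region of the alpha chain, stood at 403 ± 64.3 against 341 ± 24.2 CPM (log2 fold change 0.24, adjusted p = 0.194). Trbc1 and Trbc2, the constant regions of the beta chain, had -0.12 and -0.03, and are so alike that reads could be shared between them. Trat1, which encodes a transmembrane adaptor bound to the receptor, had 56.9 ± 11.9 against 70.9 ± 3.30 CPM (-0.32, adjusted p = 0.144). The median of the 4 was -0.07.

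Coreceptors and costimulatory receptors had 4 of 12 tested genes higher, 0 lower and 8 not called, with a median of 0.35. Icos, a relative of Cd28 that T cells show after activation, rose from 81.7 ± 11.4 to 128 ± 16.6 CPM, a log2 difference of 0.65 (SE 0.11, adjusted p = 0.00557). Cd6, a scavenger receptor family member on T cells, rose from 350.0 ± 17.7 to 482 ± 40.9 CPM (0.46, SE 0.08, adjusted p = 0.00570). Slamf1, a self-binding receptor of lymphocytes, rose from 58.6 ± 11.2 to 98.9 ± 15.8 CPM (0.76, SE 0.14). Cd5, a brake on receptor signalling that is named after its values were seen, rose from 357 ± 14.2 to 470.4 ± 60.3 CPM (0.40, SE 0.09, adjusted p = 0.0214). The groups did not overlap for Icos, Cd6 and Cd5, where 4.86% of all tested genes do not overlap, 2.78% being higher in Atg5-deficient libraries. For Cd5 the margin was very small, with 372.2 CPM in the lowest Atg5-deficient and 371.9 CPM in the highest wild-type library. With 1 library left out at a time, Icos, Cd6 and Slamf1 passed in 11 of 11 fits and Cd5 in 9.

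Kinases and phosphatases of the proximal step had 2 of 13 genes higher and 0 lower, with a median of 0.10. Ptprj, which encodes the receptor phosphatase CD148, rose from 30.6 ± 7.22 to 57.4 ± 11.7 CPM, a log2 difference of 0.91 (SE 0.17, adjusted p = 0.00908), and Ptpn11, which encodes the phosphatase SHP2, from 122 ± 6.30 to 170.5 ± 32.8 CPM (0.48, SE 0.11, adjusted p = 0.0237). Neither overlapped between groups. Ptpn11 passed in 9 of the 11 fits and Ptprj in all of them. Among adaptors and exchange factors 1 of 20 was higher and 0 lower (median 0.12). It was Unc119, which in T cells aids the activation of LCK and which rose from 12.5 ± 2.52 to 21.2 ± 3.34 CPM, by 0.76 on the log2 scale (SE 0.15, adjusted p = 0.0104).

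Among genes of second messengers, calcium and Ras 1 of 17 was higher and 0 lower (median 0.06). Nfatc1, a transcription factor that calcineurin activates, rose from 266 ± 8.92 to 350.3 ± 65.0 CPM, by 0.40 on the log2 scale (SE 0.11, adjusted p = 0.0408). It passed in 3 of the 11 fits. Ubiquitin ligases and brakes had 4 of 16 genes higher and 1 lower, with a median of 0.07. Sla, an adaptor that lowers receptor levels, rose from 227 ± 17.4 to 342 ± 37.9 CPM (0.59, SE 0.09, adjusted p = 0.00410). Dok2 (0.50, SE 0.10), an adaptor that restrains Ras, and Cish (0.56, SE 0.14), a cytokine-induced inhibitor, rose too, and passed in 11 and 6 of the 11 fits. Dok1 (0.58) and the ubiquitin ligase gene Peli1 (-0.30), both named after their values were seen, passed in 3 and 2 of them.

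**Figure D5:**
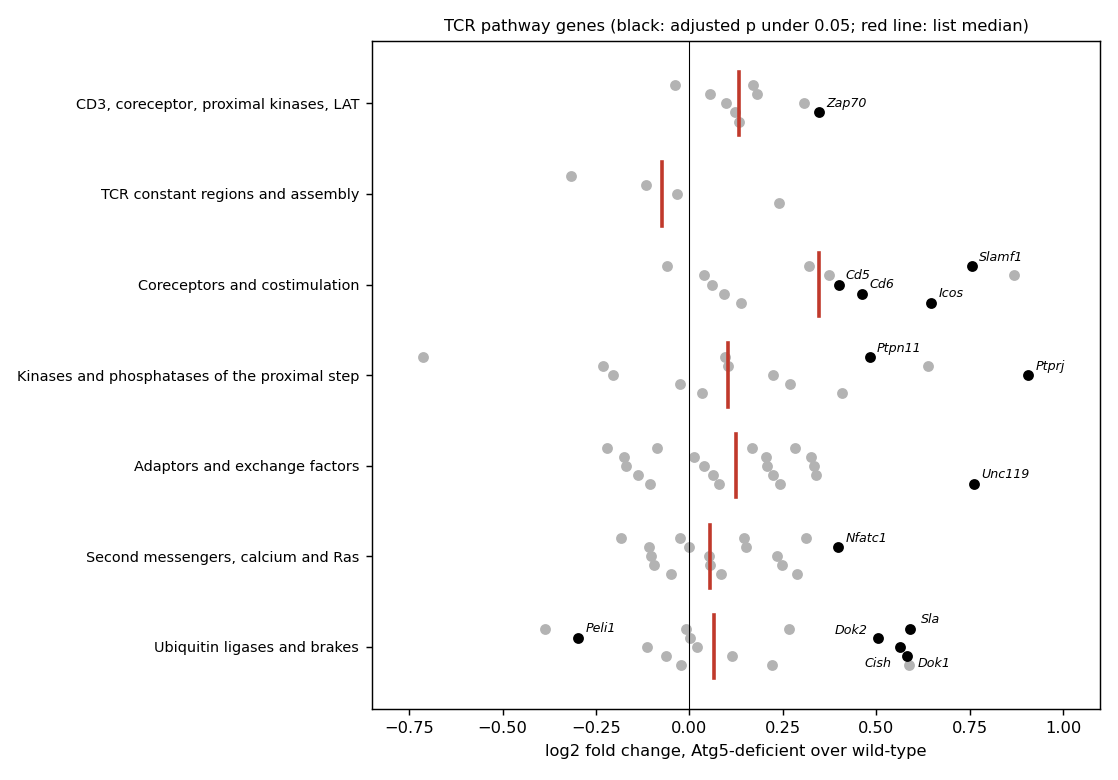
Log2 fold change, Atg5-deficient over wild-type (horizontal axis), of each tested gene in the 9-gene set and the 6 further lists, black and named where the adjusted p is under 0.05 and grey otherwise, with the list median as a red line. The largest list median is 0.35 for coreceptors and costimulation, and the only called gene to the left of 0 is Peli1.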

How the data were processed

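The authors deposited unnormalised read counts for Ensembl genes, with 1 column per library and 0 columns of other samples. The submitters' processing notes name STAR, featureCounts and GRCm38. The labels name a stranded total RNA kit. No source used here gives versions, annotation release or strand setting. Of 56748 identifiers, 52125 (91.9%) matched GENCODE M21, which gave symbols, coordinates and exon lengths.

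Low counts were filtered with filterByExpr (at least 10 counts, 15 in total), libraries scaled by TMM factors, and genotype tested with edgeR's robust quasi-likelihood F test, with Benjamini-Hochberg adjustment over 17987 genes and a threshold of 0.05. SEs were derived from the F statistic, and 95% intervals from them and the test's degrees of freedom. Library depth was 30699408 to 47564440 counts, and 3 counts correspond to 0.0631 to 0.0977 CPM on total counts alone. The fit was tested on simulated data.

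Replicates were numbered in accession order and pair nothing. The 9 genes, the lists and the tests were chosen with earlier results of these data known. Named are the 9 genes, Atg5, up to 3 called genes per list with the smallest p (or the gene with the smallest p where none is called), and the nearest profiles. Cd5, Dok1, Peli1, Trac, Trbc1 and Trbc2 were named after their values were seen, and cell markers only as checks. Nearest profiles used log2 CPM with a prior count of 2. The software was edgeR 4.0.16, DESeq2 1.42.0 and limma 3.58.1 in R 4.3.3. Alternatives were other scalings, DESeq2, limma-voom (quality-weighted libraries), a strict filter (1 CPM in 5 libraries) or no filter, a hepatocyte covariate, the 8 libraries with consecutive title numbers, and each library left out in turn.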

Additional observations from a re-analysis of the deposited data

Results flagged for a closer look

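In 5 of the 18 gene and group combinations examined, 1 library stood far from the others of its group by Dixon's 95% criterion, which chance alone meets in about 1 in 20 groups. Over all 17987 tested genes 6.09% met it among wild-type and 9.04% among Atg5-deficient libraries. All 5 concern wild-type libraries, and 4 of them are the same library, replicate 2, which met it in 2.96% of all tested genes, the most of the 5 wild-type libraries. The 5 are therefore not independent. Wild-type replicate 2 had 195 CPM of Cd3d, where the other 4 had 149 to 159.8 CPM, and 425 CPM of Cd3e against 353 to 371 CPM. Its Cd3g was 496 CPM against 366 to 377 CPM. Cd28 was low in the same library, at 196 CPM against 266 to 288 CPM. Wild-type replicate 3 had 309 CPM of Cd247 against 357 to 373 CPM. With wild-type replicate 2 left out, Cd3d had a log2 fold change of 0.04, Cd3e of 0.23, Cd3g of 0.28 and Cd28 of 0.05, and without wild-type replicate 3 that of Cd247 was 0.01, in each case without a call. Causes were not tested.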

How the results depend on the processing

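No paired analysis was possible because the replicate numbers were given in accession order and the titles share no numbers between genotypes. The main counts were 1231 genes called (797 higher, 434 lower), 1 of the 9 genes (Zap70) and 13 genes of the 6 lists. Scaling to Cd3d, Cd3e and Cd3g gave 291 genes (186 higher, 105 lower), 0 of the remaining 6 genes and 1 list gene. DESeq2 gave 2370 (1394 and 976), also Zap70 alone, and 20 list genes, and limma-voom 3382 (1941 and 1441), 2 of the 9 (Zap70 and Cd4) and 29. The 8 libraries with consecutive title numbers (5 Atg5-deficient, 3 wild-type) gave 176 (87 and 89), 0 and 1. Of the 9 genes 0 passed with edgeR under upper-quartile factors, which gave 685 lower genes, or with the hepatocyte covariate. At an unadjusted p under 0.05, 2 passed under either, and 1 among those 8 libraries. Called genes were higher in 64.7% of cases, in 46.0% with upper-quartile factors, 75.1% with total counts alone and 74.8% with library sizes that leave out hepatocyte, haemoglobin and mitochondrial genes. Leaving out 1 library gave 642 to 2143 genes (402 to 1410 higher, 191 to 733 lower), 0 to 2 of the 9 and 7 to 22 list genes. The log2 fold change changed sign for Cd3d in limma-voom (0.0526) and between -0.0853 and 0.0391 over the fits without 1 library (0.0124 without Atg5-deficient replicate 3), for Cd247 with upper-quartile factors (-0.0164) and scaled to the CD3 chains (-0.0844), and for Lck (-0.0449) and Lat (-0.012) scaled to the CD3 chains. The median log2 fold change of all genes moved as well, from -0.0027 in the main fit to -0.0705 with upper-quartile factors. It was -0.1178 when scaled to the CD3 chains and -0.0259 in limma-voom. These sign changes are therefore not particular to the 4 genes' own counts, and they concern estimates near 0. Other causes were not tested. Zap70 stayed positive in all 22 alternative fits (0.24 to 0.44). The fold between the highest and lowest median level of the 9 genes was 3.798, 3.498 with the longest transcript as the length and 3.57 on total counts. Depth limits little here, since each of the 9 genes had at least 4103 counts in every library, and 6 and 5 libraries limit the precision.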
